A study of Homo sapiens with 36 samples.

Results

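The NF-kB genes described here were the 5 subunits NFKB1, NFKB2, REL, RELA and RELB, the feedback inhibitors NFKBIA, NFKBIE and TNFAIP3, and the survival targets BIRC3 and CFLAR. The 10 genes were chosen with earlier results of these data known. They were 10 of the 33616 genes that had an array unit (a set of probes read as 1 value) annotated with a single symbol, and their units were found by that symbol. Each had exactly 1 such unit. The cells were MEC-1, an immortal human line grown from the B cells of chronic lymphocytic leukaemia. They took up locked-nucleic-acid gapmers (short antisense oligonucleotides) without a transfection agent for 4 days at 1 µM of each gapmer. In each of 3 experiments, aimed at a long non-coding RNA each (CYTOR, for which LINC00152 is a synonym; LINC00158; or RP11-161H23.5), the cells received gapmer 1, gapmer 2, gapmers 1+2 together, or a scrambled gapmer. Each of these 12 groups had 3 arrays, 36 in all, and every value below is a log2 signal per array. At 1 µM of each gapmer, cells with gapmers 1+2 received a larger total dose than cells with a single gapmer. The combination and the total dose therefore cannot be told apart. All groups share the cell line and exposure to a gapmer, so no array shows untreated cells. The labels do not say that the 3 arrays of a group came from separate cultures, so p-values measure the spread between these arrays only.

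NF-kB dimers are held in the cytoplasm by IkB proteins. Signals from B-cell receptors, CD40 and Toll-like receptors activate IkB kinases, the IkB proteins are degraded, and the dimers enter the nucleus and bind kB motifs. Among their best known targets are their own inhibitors, which close a feedback loop, and genes that protect cells from death; NF-kB activity is a known survival pathway of B-cell malignancies.

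The B-cell identity of the arrays was checked with marker genes. The 6 of 8 B-cell markers with a unit averaged 9.16 to 12.09, whereas all 7 myeloid markers averaged 3.39 to 4.67 and the 6 of 7 T and NK cell markers with a unit 3.32 to 6.75. The 4 of 5 erythroid and platelet markers with a unit averaged 3.37 to 4.55. The 6 stromal and epithelial markers averaged 3.39 to 8.19, with COL1A1 highest and KRT8 at 6.10. The LINC00158 unit averaged 5.57, 6.01 and 5.32 in gapmer 1, gapmer 2 and gapmer 1+2 arrays of its own experiment, against 7.94 in its scrambled arrays; it also averaged 5.65, 5.46 and 5.36 in the RP11-161H23.5 gapmer arrays, against 6.80 in that experiment's scrambled arrays. In the CYTOR experiment it averaged 7.22, 6.05 and 5.88 with gapmer 1, gapmer 2 and gapmer 1+2, against 7.09 in the scrambled arrays. The CYTOR unit went against its labels, with 6.93, 6.56 and 6.27 in the arrays labelled CYTOR gapmer 1, gapmer 2 and gapmer 1+2, against 5.34 in their scrambled arrays. In the LINC00158 experiment the CYTOR unit averaged 5.24, 4.84 and 4.51 with the 3 treatments, against 6.21 in scrambled arrays, and in the RP11-161H23.5 experiment 4.43, 3.83 and 4.36, against 4.82. No unit carried the symbol RP11-161H23.5, so that target was not analysed here. By the share of exactly identical values, 4 sets of 9 arrays could be told apart (at least 2.39% within a set and at most 0.87% between sets); they were the 9 scrambled arrays and the 9 gapmer arrays of each experiment. A difference between gapmer and scrambled arrays and a difference between sets therefore cannot be told apart in any comparison below that crosses them. In bulk RNA, fewer cells and less RNA per cell likewise cannot be told apart.

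The promoters of genes in the feedback loop are shown because the kB motif is the sequence to which these factors bind. RefSeq (GRCh38.p14) promoter sequence was matched for 8 of the 10 genes, all but RELB and NFKBIE. In the 250 bases before the gene start, 6 of these 8 held at least 1 match of the 10-base kB motif on either strand, against 9.57% of 27305 promoters. Matches are in capitals, and each sequence is written 5′ to 3′ on the gene's strand. NFKB1 (chr4:102501109-102501358, plus strand) had a match from 49 to 40 bases before its start, NFKBIA (chr14:35404750-35404999, minus strand) from 81 to 72 bases, and CFLAR (chr2:201118466-201118715, plus strand) from 97 to 88 bases. TNFAIP3 (chr6:137867009-137867258, plus strand) held 2 matches, starting 67 and 55 bases before its start. NFKB2 (chr10:102393860-102394109, plus strand) held none, which says only that the motif is not in this window.
NFKB1: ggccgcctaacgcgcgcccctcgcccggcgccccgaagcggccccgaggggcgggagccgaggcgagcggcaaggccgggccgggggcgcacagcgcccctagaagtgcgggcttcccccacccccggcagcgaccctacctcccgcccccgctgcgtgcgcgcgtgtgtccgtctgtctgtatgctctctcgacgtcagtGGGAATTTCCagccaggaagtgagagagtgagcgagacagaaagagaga
NFKBIA: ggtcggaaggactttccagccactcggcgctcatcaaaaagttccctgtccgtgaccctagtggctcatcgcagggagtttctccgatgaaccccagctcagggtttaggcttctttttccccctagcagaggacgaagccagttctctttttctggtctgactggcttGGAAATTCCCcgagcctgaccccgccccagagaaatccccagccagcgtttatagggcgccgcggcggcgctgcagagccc
TNFAIP3: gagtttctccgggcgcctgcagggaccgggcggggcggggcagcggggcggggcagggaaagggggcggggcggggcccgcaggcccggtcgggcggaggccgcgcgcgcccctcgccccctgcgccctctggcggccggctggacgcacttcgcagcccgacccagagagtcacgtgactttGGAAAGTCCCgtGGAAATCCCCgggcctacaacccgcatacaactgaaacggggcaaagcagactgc
CFLAR: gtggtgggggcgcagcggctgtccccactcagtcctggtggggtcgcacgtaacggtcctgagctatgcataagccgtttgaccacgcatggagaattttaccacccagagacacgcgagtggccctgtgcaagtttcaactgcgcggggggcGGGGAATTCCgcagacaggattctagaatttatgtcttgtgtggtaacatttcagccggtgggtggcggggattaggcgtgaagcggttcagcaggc
NFKB2: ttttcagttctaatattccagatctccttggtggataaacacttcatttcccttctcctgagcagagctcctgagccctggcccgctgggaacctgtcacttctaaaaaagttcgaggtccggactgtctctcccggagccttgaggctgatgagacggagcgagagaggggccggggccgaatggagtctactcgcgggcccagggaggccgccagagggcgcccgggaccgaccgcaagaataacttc

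**Figure D1:**
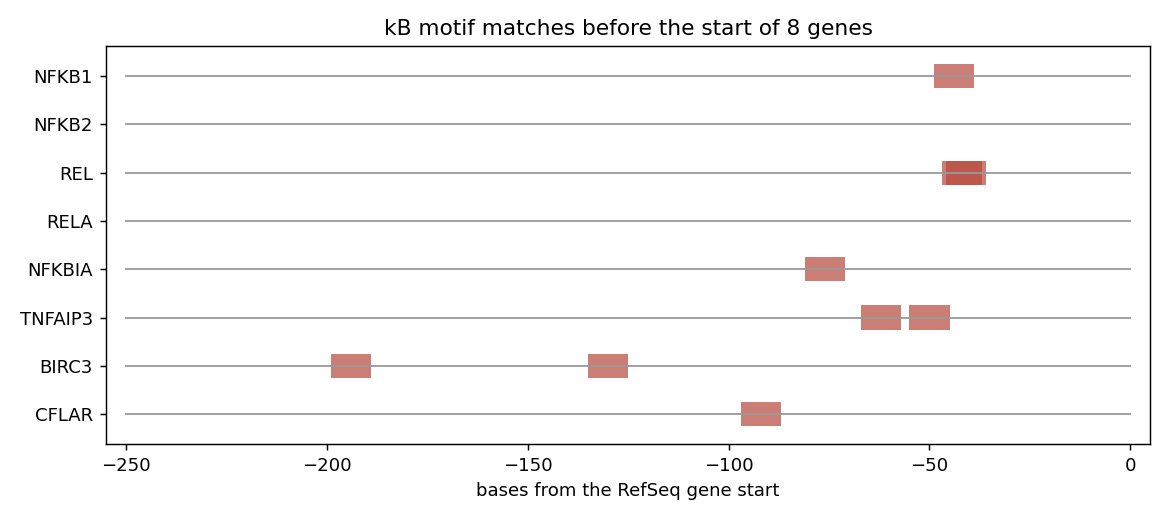
Positions of kB motif matches (red bars) in the 250 bases before the RefSeq start of 8 genes; the x axis gives bases from the start. Matches lie in 6 of the 8 windows, and NFKB2 and RELA have none; REL, TNFAIP3 and BIRC3 have 2 each, overlapping in REL.

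In the LINC00158 experiment 8 of the 10 NF-kB genes, all but RELA and the unit named BIRC3, were called lower than on scrambled arrays with gapmer 2, as were 10.5% of all units. With limma and Benjamini-Hochberg adjustment over all units tested, 3 of 10 genes were called lower (adjusted p under 0.05) with gapmer 1, 8 with gapmer 2 and 6 with gapmer 1+2, and none higher. The share of all units called was 6.28%, 10.5% and 8.82% lower and 4.54%, 6.89% and 6.19% higher in the same comparisons. All 3 gapmer arrays lay below all 3 scrambled arrays for 4, 9 and 10 genes, as for 16.6%, 25.4% and 25.1% of units. The median change of the 10 genes was -1.04, -1.58 and -1.31, against -0.11, -0.10 and -0.11 over all units. After quantile normalization, which gives every array of a fit the same distribution, 2, 4 and 2 genes were called lower, against 3.61%, 6.23% and 5.2% of all units. NFKB1, NFKB2 and REL were called lower with all 3 treatments on the deposited values, as were 4.1% of units.

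NFKB1 encodes the precursor of a subunit of the classical NF-kB dimer. It read 7.73, 6.70 and 6.68 with gapmer 1, 6.47, 6.92 and 6.13 with gapmer 2, and 6.50, 6.48 and 6.36 with gapmer 1+2, against 7.98, 8.63 and 8.42 on scrambled arrays. All 9 gapmer arrays lay below all 3 scrambled arrays, and replicate 1 of gapmer 1 lay nearest to them. The change was -1.31 ± 0.31, -1.84 ± 0.31 and -1.90 ± 0.31 (standard error, n = 3 against 3) with limma adjusted p of 0.0255, 0.00582 and 0.00563. After quantile normalization it was -1.01, -1.49 and -1.55 and still called with all 3 treatments.

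NFKB2 encodes the precursor of a subunit of the alternative pathway. It read 6.21, 5.18 and 5.0 with gapmer 1, 5.17, 5.07 and 4.92 with gapmer 2, and 5.14, 5.25 and 5.44 with gapmer 1+2, against 6.69, 6.77 and 6.57 on scrambled arrays. No gapmer array reached the lowest scrambled array. The change was -1.21, -1.62 and -1.40 (standard error 0.28 each; limma adjusted p = 0.0229, 0.00605 and 0.0111), and it was called after quantile normalization too, at -1.10, -1.47 and -1.23.

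REL encodes the transactivating subunit most prominent in lymphocytes. It read 8.97, 8.23 and 8.64 with gapmer 1, 8.76, 8.65 and 8.12 with gapmer 2, and 8.33, 8.18 and 8.66 with gapmer 1+2, against 9.28, 9.80 and 9.75 on scrambled arrays. The groups did not overlap. The change of -1.0, -1.10 and -1.22 was called on the deposited values (limma adjusted p = 0.0353, 0.0185 and 0.0145). After quantile normalization it was -0.52, -0.54 and -0.72 and no longer called (adjusted p = 0.191, 0.157 and 0.0748).

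RELB, the transactivating partner of the NFKB2 product, read 9.29, 7.47 and 7.46 with gapmer 1, 7.66, 6.72 and 7.52 with gapmer 2, and 7.46, 7.54 and 6.97 with gapmer 1+2, against 9.02, 9.03 and 8.47 on scrambled arrays. Replicate 1 of gapmer 1 was above every scrambled array, while the other 8 gapmer arrays were below all of them. RELB was called lower with gapmer 2 (-1.54, limma adjusted p = 0.0396) and gapmer 1+2 (-1.52, adjusted p = 0.0454), but not after quantile normalization (adjusted p = 0.0632 and 0.0681). Each of these calls held in 4 of 12 fits without 1 array. RELA, the transactivating subunit of the classical dimer, was not called with any LINC00158 treatment, with changes of -0.44, -0.67 and -0.51 (limma adjusted p = 0.211, 0.0597 and 0.140).

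Of the 9 changes of the inhibitors, 4 were called lower. NFKBIA, which encodes the IkB protein that is resynthesised fastest after activation, read 12.31, 10.30 and 11.27 with gapmer 1, 10.34, 10.19 and 10.89 with gapmer 2, and 11.31, 10.82 and 11.66 with gapmer 1+2, against 12.12, 12.02 and 12.22 on scrambled arrays. Gapmer 2 and gapmer 1+2 arrays lay below all scrambled arrays, and replicate 1 of gapmer 1 lay above them. Only the change with gapmer 2 was called among the 3 NFKBIA changes (-1.65, limma adjusted p = 0.0247), and after quantile normalization it was -0.85 (adjusted p = 0.0766). NFKBIE, a further IkB gene, was called lower with gapmer 2 at -1.29 (limma adjusted p = 0.0299) and, after quantile normalization, at -0.99 (adjusted p = 0.0318).

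TNFAIP3, which encodes a ubiquitin-editing enzyme that shuts the pathway down, read 14.94, 13.08 and 13.27 with gapmer 1, 13.18, 12.62 and 13.05 with gapmer 2, and 13.50, 13.01 and 13.46 with gapmer 1+2, against 14.89, 14.50 and 15.12 on scrambled arrays. Again 8 of 9 gapmer arrays lay below all scrambled arrays, and replicate 1 of gapmer 1 lay among them. The change was called with gapmer 2 (-1.89, limma adjusted p = 0.0150) and gapmer 1+2 (-1.51, adjusted p = 0.0353). After quantile normalization the gapmer 2 change was still called at -1.06 (adjusted p = 0.0348), and the gapmer 1+2 change of -0.83 was not (adjusted p = 0.0812).

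CFLAR encodes a catalytically inactive caspase relative that blocks death receptor signalling. It read 13.86, 11.82 and 12.33 with gapmer 1, 12.47, 12.22 and 12.16 with gapmer 2, and 12.46, 11.82 and 12.72 with gapmer 1+2, against 14.50, 13.40 and 14.15 on scrambled arrays. The gapmer 2 and gapmer 1+2 arrays lay below all scrambled arrays, with changes of -1.73 and -1.68 (limma adjusted p = 0.0295 and 0.0362). After quantile normalization neither was called (adjusted p = 0.0853 and 0.0654).

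BIRC3 encodes an inhibitor-of-apoptosis ubiquitin ligase. Its unit carried no Entrez ID, and 0 of the 17 named neighbouring units with a known strand lay on the plus strand, where the gene lies, so whether it reads the BIRC3 messenger RNA cannot be told. The unit named BIRC3 was not called in any of the 9 comparisons with scrambled arrays of the same experiment. Leaving it out changed no count of calls in the main fits or after quantile normalization. Against the LINC00158 scrambled arrays it was called lower with RP11-161H23.5 gapmer 1+2 (-1.54, limma adjusted p = 0.0283). Without replicate 3 of LINC00158 gapmer 2, the unit was called lower with LINC00158 gapmer 1+2 (limma adjusted p = 0.0495). In the LINC00158 experiment its changes were -1.14, -0.31 and -1.15 (limma adjusted p = 0.101, 0.634 and 0.0844).

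**Figure D2:**
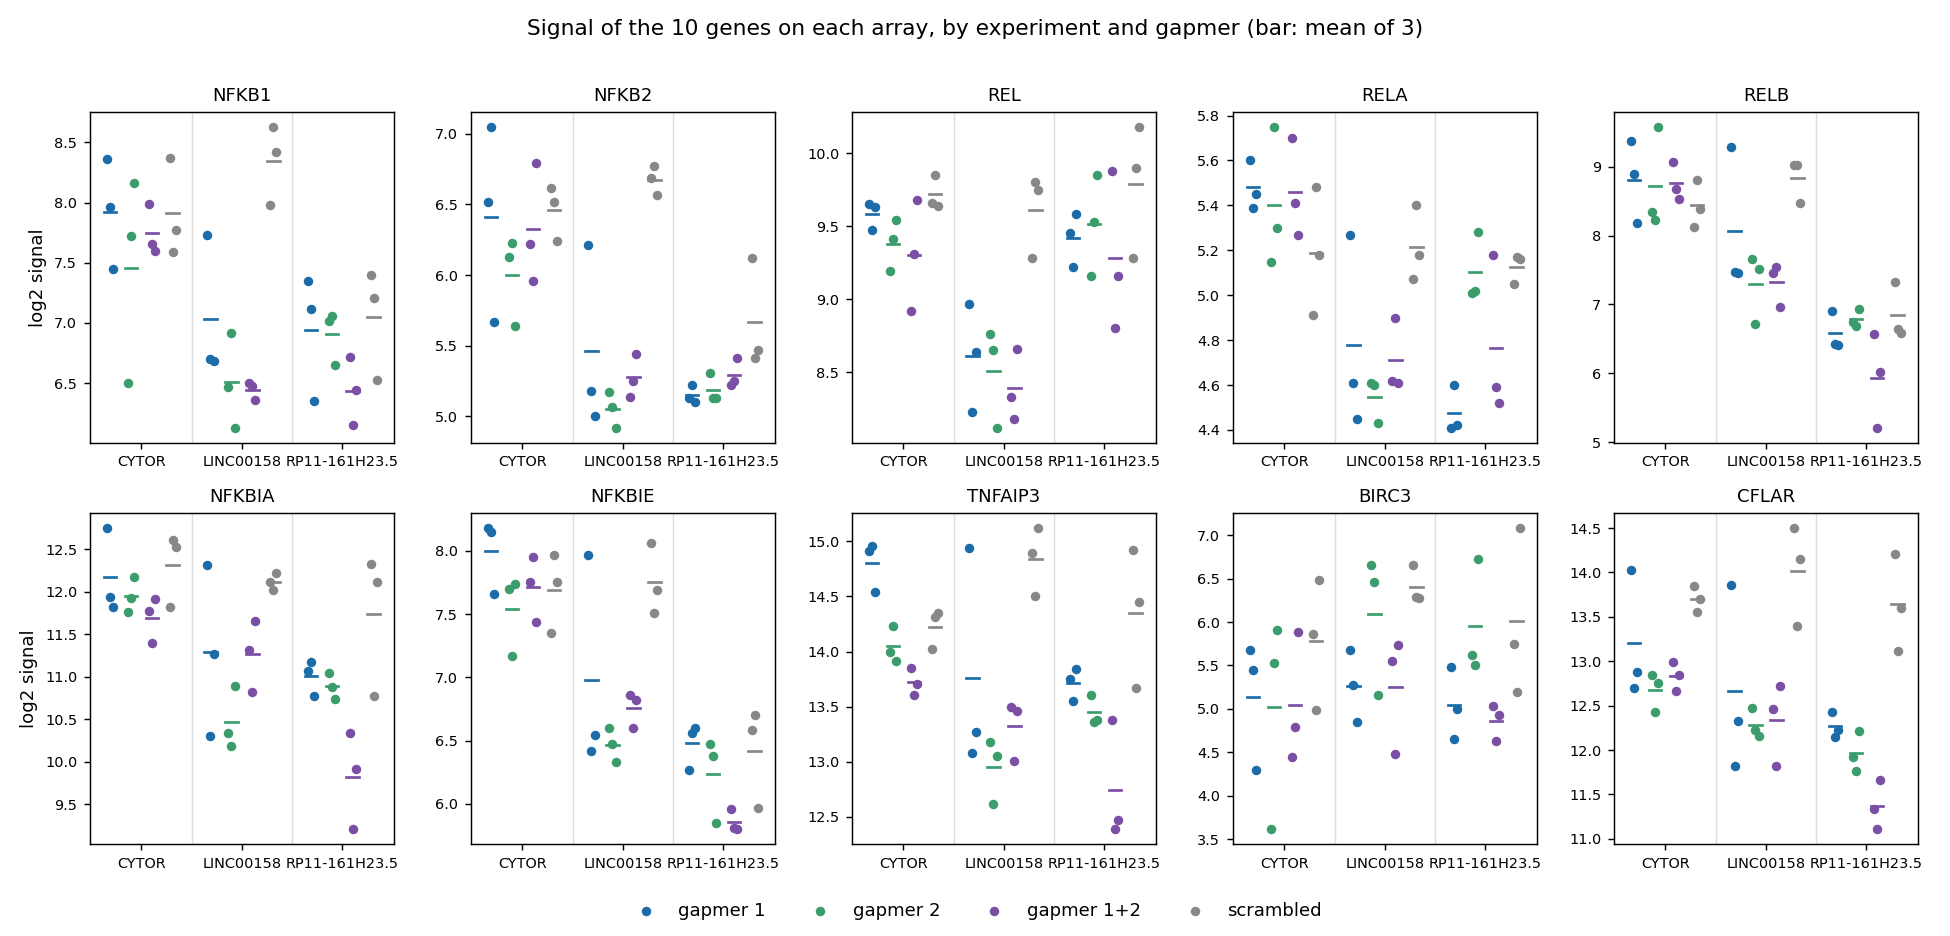
Deposited log2 signal (y axis) of the 10 genes on each of the 36 arrays, grouped by experiment on the x axis; points are arrays, bars are means of 3, and colours give the gapmer. In the LINC00158 experiment the NFKB1 gapmer arrays sit between 6.13 and 7.73 and the scrambled arrays between 7.98 and 8.63, and 1 gapmer 1 array sits high in most panels.

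Replicate 1 of LINC00158 gapmer 1 stood apart from the other arrays of its group. It was above the group mean for 9 of 9 genes (BIRC3 left out), by 0.88 on average. The median of the 1927 brightest units was 14.43 on this array, and its LINC00158 unit read 5.73, beside 5.22 and 5.77 on the other gapmer 1 arrays. Without it, 26 of 30 gene changes in the experiment were called lower, 9 with gapmer 1, 9 with gapmer 2 and 8 with gapmer 1+2, against 17 with it. Without replicate 1, 2 or 3 of the scrambled arrays the count was 8, 7 or 6. The groups of an experiment share an estimate of the spread, so leaving out an array can change calls of any unit in every comparison. No share of all units is given for these counts, so they do not set the genes apart from other units.

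Bright units as a class were also lower in this experiment. The median of the 1927 units with a mean of at least 12 was 13.86, 13.81 and 13.97 with gapmer 1, gapmer 2 and gapmer 1+2, against 14.63 on scrambled arrays. The summed signal of the 6 B-cell markers ranged over 56.72 to 68.17, 57.98 to 59.90 and 57.33 to 59.98, against 67.03 to 68.21. Units within 0.5 log2 of a gene's own level changed by a median of -0.29 to -0.36 around NFKB1, -0.07 to -0.08 around NFKB2 and -0.53 to -0.61 around REL. Around NFKBIA, TNFAIP3 and CFLAR the medians were -0.69 to -0.87, beside changes of -0.83 to -1.89 for these 3 genes. Whether the changes of the 10 genes arise from this shift was not tested.

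**Figure D3:**
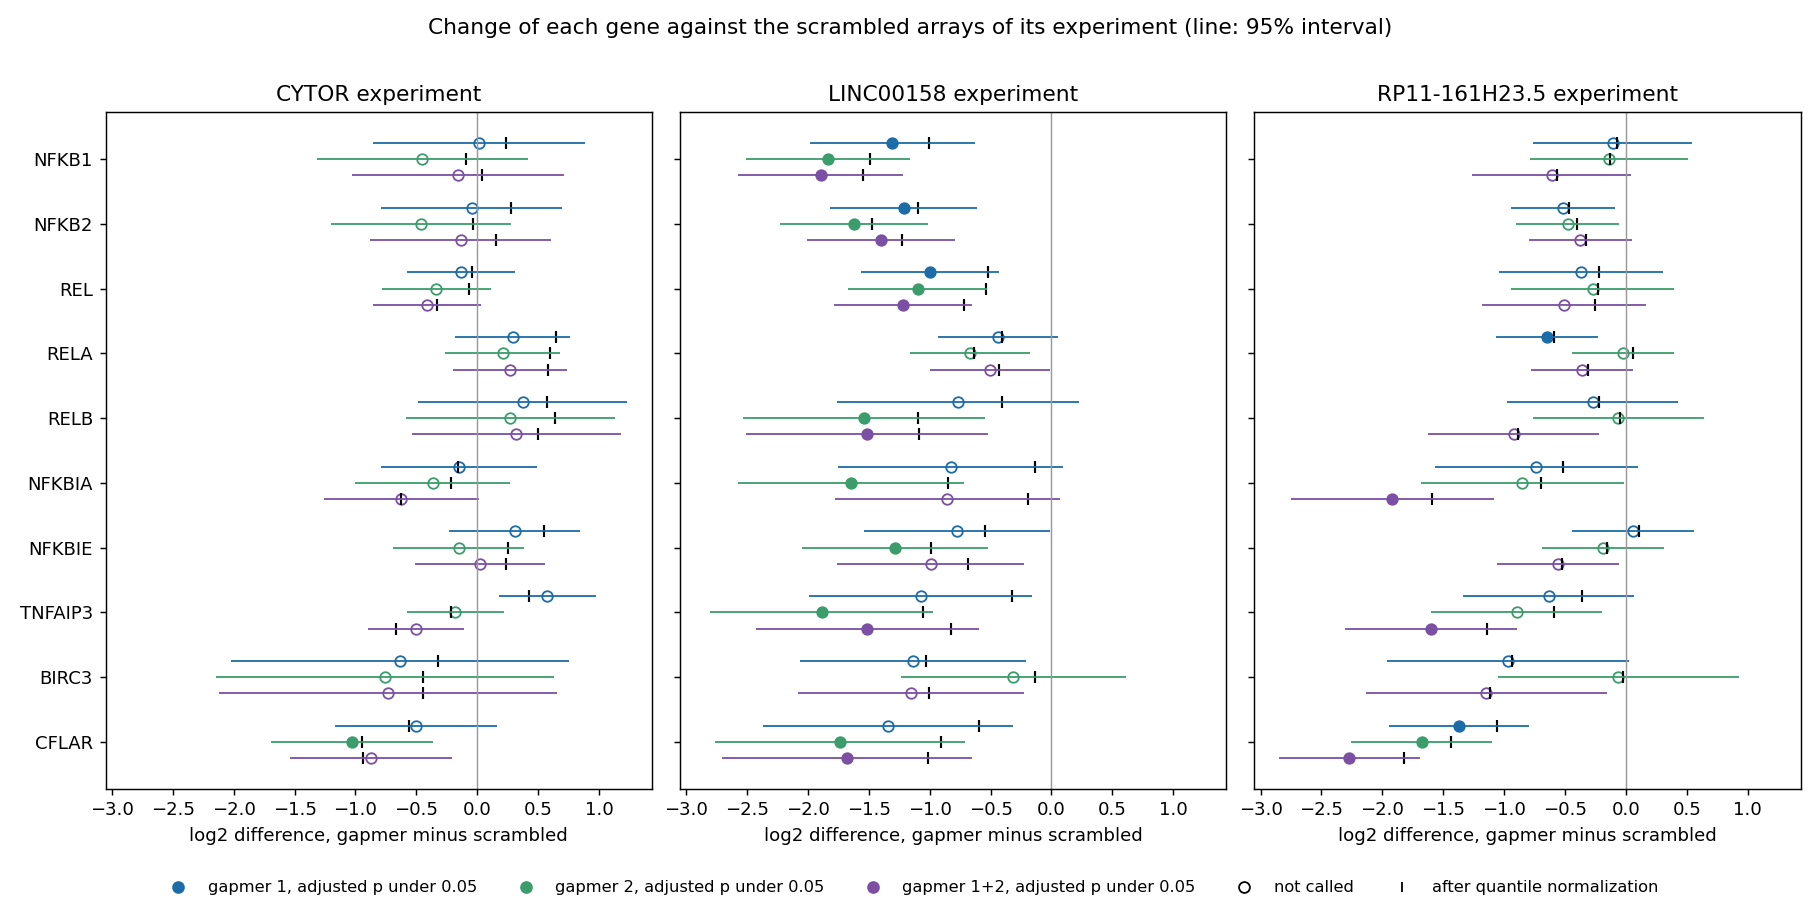
Log2 difference of gapmer minus scrambled arrays (x axis) for each gene in the 3 experiments; circles are the deposited values with their 95% interval, filled where called, and black ticks are the quantile-normalized differences. The 17 filled circles of the LINC00158 experiment and the 6 of the RP11-161H23.5 experiment all lie below 0.

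In the RP11-161H23.5 experiment the gene with the most calls was CFLAR. It read 12.43, 12.15 and 12.23 with gapmer 1, 11.92, 11.76 and 12.21 with gapmer 2, and 11.34, 11.11 and 11.66 with gapmer 1+2, against 14.21, 13.11 and 13.60 on scrambled arrays. All 9 gapmer arrays lay below all 3 scrambled arrays. The change was -1.37 ± 0.26, -1.68 ± 0.26 and -2.27 ± 0.26 (standard error, n = 3 against 3; limma adjusted p = 0.00833, 0.00330 and 0.000591), or 2.58, 3.20 and 4.82 times lower. It was called after quantile normalization (-1.06, -1.44 and -1.82), without each array in turn, and under every other setting tried for it. Units of like brightness changed by a median of -0.27, -0.17 and -0.36.

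Over all 10 genes, 2, 1 and 3 were called lower with gapmer 1, gapmer 2 and gapmer 1+2, against 7.1%, 7.03% and 9.3% of all units, and none higher, against 6.19%, 5.2% and 6.98%. All 3 gapmer arrays lay below all 3 scrambled arrays for 3, 3 and 6 genes, as for 18.3%, 18.8% and 18.9% of units. After quantile normalization the counts were 1, 1 and 3, against 5.75%, 5.34% and 7.43%. NFKBIA was called with gapmer 1+2 only among these treatments, at 10.34, 9.21 and 9.92 against 12.33, 10.78 and 12.11 on scrambled arrays. The groups did not overlap, and the change was -1.92 (limma adjusted p = 0.00764), or -1.59 after quantile normalization (adjusted p = 0.0107). TNFAIP3 read 13.38, 12.39 and 12.47 with gapmer 1+2, against 14.92, 13.67 and 14.45 on scrambled arrays. Again the groups did not overlap, and the change was -1.60 (limma adjusted p = 0.00803), or -1.14 after quantile normalization (adjusted p = 0.0349). The 1927 units with a mean of at least 12 were lower in this experiment too. Their median was 13.89, 13.88 and 13.69 with gapmer 1, gapmer 2 and gapmer 1+2, against 14.20 on scrambled arrays. Whether the changes of the 10 genes here arise from this shift was not tested.

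Among the subunits, RELA was called with gapmer 1, at 4.41, 4.60 and 4.42 against 5.05, 5.17 and 5.16 on scrambled arrays (-0.65, limma adjusted p = 0.0452), but not after quantile normalization (adjusted p = 0.0745). The RELA call held in 3 of 12 fits without 1 array. NFKB1, NFKB2, REL and RELB gave 0 calls among 12 changes, which ranged between -0.92 and -0.06. NFKBIE and the unit named BIRC3 gave none either. Between gapmer 1+2 and the mean of the single gapmers 0 of 10 genes were called (lowest limma adjusted p = 0.454), and 5 had an unadjusted p under 0.05, against 8.37% of units. NFKBIA had the largest such difference of the 10 genes, -1.13 with an unadjusted 95% interval of -1.85 to -0.40. The total gapmer dose also differed in this comparison.

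In the CYTOR experiment, whose target unit went against its labels, 0, 1 and 0 of the 10 genes were called with gapmer 1, gapmer 2 and gapmer 1+2, against 11.4%, 12.4% and 8.93% of all units called lower and 1.77%, 1.84% and 1.54% called higher. All 3 gapmer arrays lay below all 3 scrambled arrays for 0, 3 and 2 genes, as for 26.2%, 25.1% and 24.5% of units. The call was CFLAR with gapmer 2, at 12.84, 12.43 and 12.75 against 13.85, 13.56 and 13.70 on scrambled arrays. The groups did not overlap, and the change was -1.03 (limma adjusted p = 0.0439). After quantile normalization 0 genes were called with each treatment, against 2.96%, 3.34% and 2.08% of units lower, and the CFLAR change was lost (adjusted p = 0.0839). It was also lost in 9 of 12 fits without 1 array. TNFAIP3 read 14.91, 14.96 and 14.54 with gapmer 1, against 14.02, 14.31 and 14.35 on scrambled arrays, a difference of 0.58 that missed the threshold (limma adjusted p = 0.0580). The median change of all units here was -0.23, -0.26 and -0.20 on the deposited values and 0.04, 0.02 and 0.04 after quantile normalization. The 1927 units with a mean of at least 12 did not share the shift of the deposited values. Their median was 14.59, 14.45 and 14.59 with gapmer 1, gapmer 2 and gapmer 1+2, against 14.43 on scrambled arrays. No other gene was called in this experiment.

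**Figure D4:**
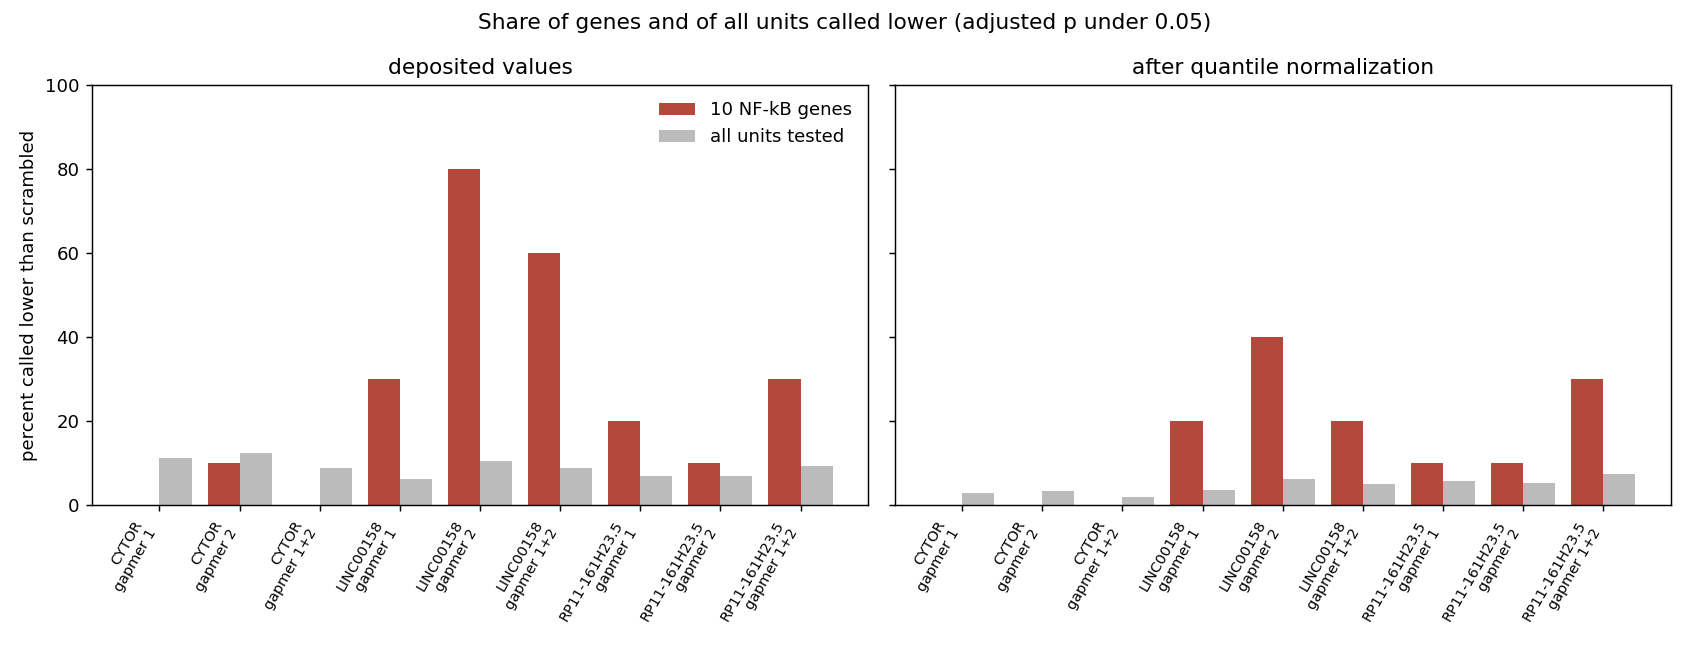
Percent called lower than scrambled (y axis, limma adjusted p under 0.05) among the 10 genes (red) and among all units tested (grey), for the 9 treatments on deposited and on quantile-normalized values. In the LINC00158 experiment the red bars reach 30, 80 and 60 percent on deposited values and 20, 40 and 20 percent after quantile normalization.

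The treatments within an experiment lie in the same set of arrays. Between gapmer 1 and gapmer 2, and between gapmer 1+2 and the mean of the single gapmers, 0 of 60 gene differences were called by limma, and 0% of all units. At an unadjusted p under 0.05, 1 and 1 of 10 genes differed in the CYTOR experiment, against 6.4% and 6.57% of units. In the LINC00158 experiment 0 and 0 differed, against 4.22% and 4.43%, and in the RP11-161H23.5 experiment 1 and 5, against 6.38% and 8.37%. A p that misses the threshold does not show that the gapmers acted alike.

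The scrambled groups of the 3 experiments, also 1 set of arrays, differed for some of the genes. RELB read 7.33, 6.64 and 6.59 on RP11-161H23.5 scrambled arrays, against 9.02, 9.03 and 8.47 on LINC00158 scrambled arrays and 8.12, 8.81 and 8.39 on CYTOR scrambled arrays. All 3 RP11-161H23.5 arrays lay below the other 6, with differences of -1.99 (limma adjusted p = 0.0109) and -1.59 (adjusted p = 0.0331). NFKB1 (-1.30), NFKB2 (-1.01) and NFKBIE (-1.34) were also called lower on RP11-161H23.5 than on LINC00158 scrambled arrays (limma adjusted p = 0.0439, 0.0380 and 0.0269). That made 4 of 10 genes in this comparison, against 3.94% of units, 1 of 10 between RP11-161H23.5 and CYTOR scrambled arrays, against 1.25%, and 0 of 10 between LINC00158 and CYTOR scrambled arrays, where no unit was called. After quantile normalization only RELB was called among the 10, in both comparisons with RP11-161H23.5 arrays, where 1.32% and 0.775% of units were called lower. Without 1 array, the NFKB1, NFKB2 and NFKBIE calls held in 1, 3 and 3 of 9 fits. The RELB calls held in 8 of 9 fits against LINC00158 and 3 of 9 against CYTOR scrambled arrays. Against the RP11-161H23.5 scrambled arrays, 8 of the 30 LINC00158 changes were called lower, so the count of called changes depended on which scrambled arrays were used. No share of all units is given for that count.

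**Figure D5:**
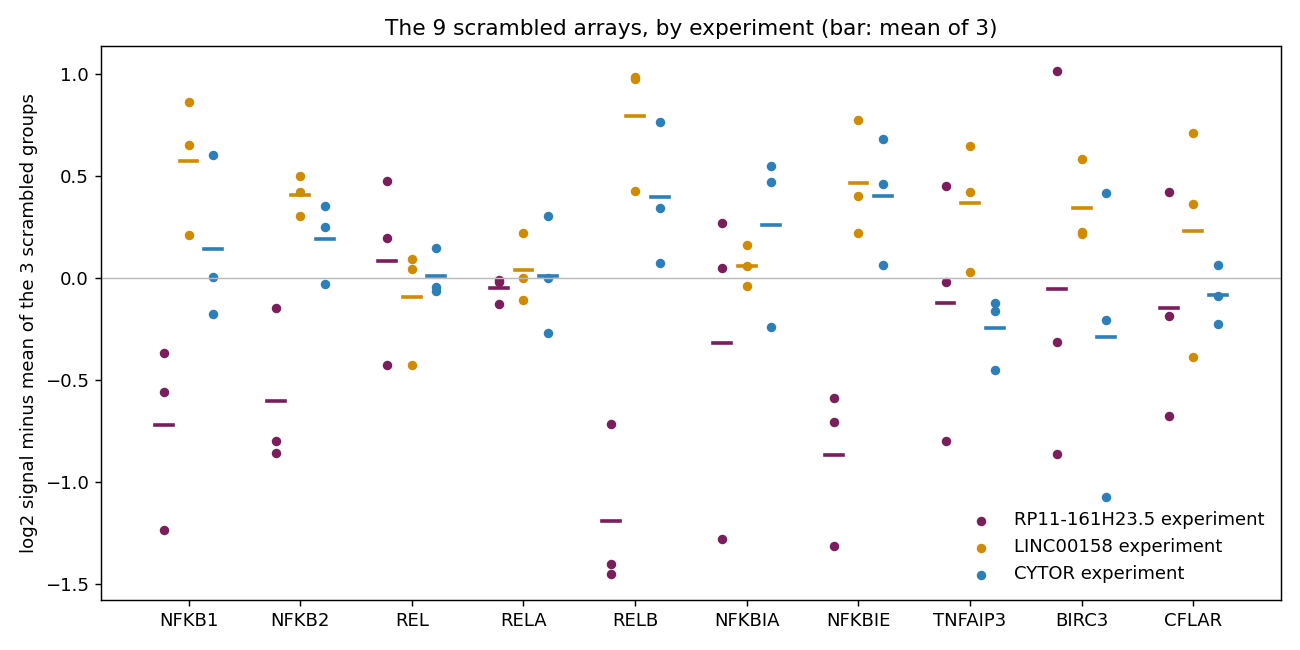
Log2 signal of the 10 genes on the 9 scrambled arrays, given relative to the mean of the 3 scrambled groups (y axis); points are arrays and bars are means of 3. The RELB bar of the RP11-161H23.5 experiment lies 1.99 below that of the LINC00158 experiment, and REL, RELA and CFLAR show no called difference.

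Whether an effect differed between experiments was tested directly, as the mean of the 3 treatments minus scrambled in one experiment minus the same in another. Against the CYTOR experiment, the LINC00158 effect was lower for 7 of 10 genes, against 8.7% of units. Bright units as a class also fell with LINC00158 gapmers and not with CYTOR gapmers. Whether the differences of the genes arise from this was not tested. NFKB1 had a mean effect of -1.68 in the LINC00158 experiment, against -0.20 in the CYTOR experiment (difference -1.48 ± 0.41, limma adjusted p = 0.00830). TNFAIP3 had -1.49 against -0.04, and RELB -1.27 against 0.32. Against the RP11-161H23.5 experiment, the LINC00158 effect was lower for 1 gene, NFKB1 (-1.40, limma adjusted p = 0.0299), against 5.14% of units. Between the RP11-161H23.5 and CYTOR experiments no gene was called on the deposited values, against 4.64% of units, and after quantile normalization RELA was (-0.89, adjusted p = 0.00813), as were 8.19% of units. The other quantile-normalized counts were 5 genes against CYTOR, with 10.5% of units, and 1 gene, NFKB1, against RP11-161H23.5, with 3.83%. For CFLAR, the mean effect was -1.59 in the LINC00158 experiment, -1.77 in the RP11-161H23.5 experiment and -0.80 in the CYTOR experiment, and none of the 3 differences was called.

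The other genes of the pathway were taken from lists of IkB proteins, kinases and adaptors, receptors and ligands, further brakes, further targets, and death receptor partners of CFLAR. Of these, 57 were tested in the LINC00158 experiment, and 6, 23 and 14 were called lower with gapmer 1, gapmer 2 and gapmer 1+2, against 6.28%, 10.5% and 8.82% of all units, and 0 higher. After quantile normalization 1, 12 and 11 were lower, against 3.61%, 6.23% and 5.2% of units, and 1 was higher with gapmer 1+2. The single gene of 57 left with gapmer 1 is a smaller share than that of all units. Summed over the 3 LINC00158 treatments, the calls, all lower, were 2 of 9 changes of IkB proteins, 9 of 60 of kinases and adaptors, 12 of 30 of receptors and ligands, 5 of 12 of brakes, 10 of 42 of targets and 5 of 18 of death receptor partners. In the RP11-161H23.5 experiment 4, 2 and 12 of 53 were lower, against 7.1%, 7.03% and 9.3% of units, and 0, 2 and 2 higher, so with gapmer 1 and gapmer 2 the share called lower was near or below that of all units. In the CYTOR experiment 2, 11 and 8 of 56 were lower, against 11.4%, 12.4% and 8.93% of units, a smaller share than that of all units with gapmer 1. After quantile normalization 1, 1 and 0 were lower there, against 2.96%, 3.34% and 2.08%. Some listed genes, among them BCL3, TRAF2, RIPK1, IRAK1, IRAK4, TNFRSF13C, TNFRSF1B and CCL4, had no unit of a single symbol and were not analysed here.

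Among receptors and ligands, CD40, the co-stimulatory receptor that activates both NF-kB branches, read 8.55, 8.39 and 8.16 with LINC00158 gapmer 2, against 10.49, 10.46 and 10.38 on scrambled arrays. The groups lay far apart, with a change of -2.08 (limma adjusted p = 0.0232). With RP11-161H23.5 gapmer 1+2 CD40 read 7.85, 6.26 and 6.96, against 9.68, 8.37 and 8.85, a change of -1.94. LTA, a TNF family ligand, was called lower with LINC00158 gapmer 2 (-1.47) and gapmer 1+2 (-1.46), and with RP11-161H23.5 gapmer 1 (-1.03) and gapmer 1+2 (-1.27). The endosomal RNA sensor TLR7 was called lower with all 3 LINC00158 treatments at -1.47, -1.36 and -1.87, but after quantile normalization with gapmer 1+2 alone among them.

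Among brakes and IkB proteins, TNIP1, a TNFAIP3-binding protein, read 9.21, 8.74 and 8.54 with LINC00158 gapmer 2, against 11.30, 11.14 and 10.74 on scrambled arrays. Its change was -2.23 there, and between -0.34 and 0.01 in the RP11-161H23.5 experiment, where it was not called. NFKBIZ, an atypical nuclear IkB gene, was called lower with LINC00158 gapmer 2 (-2.18) and gapmer 1+2 (-2.10). It was also called lower with RP11-161H23.5 gapmer 1+2 (9.14 against 10.37 on scrambled arrays). Its call with CYTOR gapmer 1+2 (9.74 against 10.87) was lost after quantile normalization. NFKBIB was called lower with all 3 RP11-161H23.5 treatments (-0.83, -0.90 and -0.92). It averaged 3.86, 3.79 and 3.77 there, below mean array medians of 3.98, 3.95 and 3.99, against 4.69 on scrambled arrays. The deubiquitinase gene CYLD was called lower with LINC00158 gapmer 2 (-1.33) and gapmer 1+2 (-1.54), and neither call held after quantile normalization. CYLD was also called lower with RP11-161H23.5 gapmer 1+2 (11.51 against 12.32 on scrambled arrays), and that call was lost too.

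Among kinases and adaptors, CHUK, an IkB kinase subunit, was called lower with the 3 LINC00158 treatments (-1.29, -1.34 and -1.46). IKBKE, an IkB-kinase-related kinase, was called lower with the 3 treatments labelled CYTOR gapmer (-1.47, -1.68 and -1.35), with -0.74 to -0.21 and no call in the LINC00158 experiment. After quantile normalization the call with CYTOR gapmer 1+2 was lost. TRADD, an adaptor of the TNF receptor, was called lower with all 3 treatments labelled CYTOR gapmer and with LINC00158 gapmer 2 and gapmer 1+2, and after quantile normalization only the LINC00158 gapmer 1+2 call of these 5 was left. Its signal was low: it averaged 3.84 and 3.65 with LINC00158 gapmer 2 and gapmer 1+2, below mean array medians of 4.02 and 3.97. With the CYTOR treatments it averaged 3.91 to 4.05, beside mean array medians of 3.84 to 3.89. TRADD did not pass the filter in the RP11-161H23.5 experiment. Among targets, the transcription factor genes IRF1 and BATF were called lower with LINC00158 gapmer 1+2, by changes of -1.59 and -1.73. Over the 9 comparisons IRF1 was called lower in 5 and BATF in 3, so the IRF1 calls were not limited to the LINC00158 experiment. IRF1 averaged 5.13 and 5.44 with CYTOR gapmer 2 and gapmer 1+2, against 6.36, and 5.55 with RP11-161H23.5 gapmer 1+2, against 6.93. No target was called in the CYTOR experiment after quantile normalization. CD83, an activation marker of B cells, was called higher with RP11-161H23.5 gapmer 2 (0.93) and gapmer 1+2 (0.80). It was called lower with CYTOR gapmer 2 (-0.80), a call lost after quantile normalization. Among the death receptor partners, the caspase inhibitor gene XIAP was called lower with the 3 LINC00158 treatments (-0.96, -0.92 and -1.08), and none of these calls held after quantile normalization. XIAP was also called lower with RP11-161H23.5 gapmer 1 (7.72) and gapmer 1+2 (7.84), against 8.64 on scrambled arrays, and these calls were lost too. The death receptor gene FAS was called lower with LINC00158 gapmer 2 (-1.13) and gapmer 1+2 (-1.28), the gapmer 2 call being lost after quantile normalization, while its adaptor FADD was not called in that experiment (0.09, 0.21 and 0.15). With CYTOR gapmer 2, FAS (7.18 against 8.07 on scrambled arrays) and FADD (4.30 against 4.82) were called lower. Neither of these calls held after quantile normalization.

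Correlations between the genes were mostly positive. Over the 36 arrays, after each group's mean was taken away, the 36 pairs among 9 genes had correlations of 0.03 to 0.80, with a median of 0.39. Over the 12 group means the median was 0.78. The pairs with the unit named BIRC3 had medians of 0.27 and 0.17. These are descriptions: the arrays share sets and scaling. Over the 12 group means, the units whose pattern was most like the mean standardised pattern of the 10 genes, among 21257 searched, were ATF2 (Pearson r = 0.99), NIP7 (0.98), F8A3 (0.98), GRHPR (0.98) and PIGH (0.98).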

How the data were processed

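Biotin-labelled targets from total RNA of 36 MEC-1 samples were hybridised to Affymetrix arrays with 135750 units. The values used are the deposited log2 signals, made by the authors with Affymetrix Expression Console and RMA per the submitters' processing notes, with no versions or genome build stated there. The number of arrays limits the precision. Unit names came from the platform annotation: 36176 units had 1 symbol, 1119 several and 98455 none. The 10 genes, the pathway and marker lists and the settings were chosen with earlier results of these data known.

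Each experiment was fitted with limma 3.58.1 in R 4.3.3 (lmFit and eBayes, 4 group means, 8 residual degrees of freedom), two-sided, on units whose mean reached the median of all units. The 10 genes and the target units were always kept, and all 10 genes also passed this filter in every experiment. P-values were adjusted by Benjamini-Hochberg over all units kept, and called under 0.05. The 9 scrambled arrays, and all 36 arrays for differences between experiments, had fits of their own. Quantile normalization was done within the arrays of each fit. With 3 arrays against 3, an exact permutation test could not go below 0.1. All 10 genes were named in every comparison, and up to 3 genes of each pathway list, those called in the most comparisons. The fits were tested on simulated data, in which most changes of 1 log2 were not called. A gene that was not called is therefore not shown to be unchanged. Replicate numbers did not pair the arrays: correlations of same-numbered arrays lay between -0.18 and 0.18. Alternatives were quantile normalization, other filters, eBayes with trend and robust, a replicate block, 1 fit of all arrays, the scrambled arrays of another experiment, only the arrays of a contrast, each array left out and, added after seeing the data, the BIRC3 unit left out. Figures and promoter searches used Python 3.11.15.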

Additional observations from a re-analysis of the deposited data

Results flagged for a closer look

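The effect of the treatments, taken as the mean of 3 gapmer groups minus scrambled, was lower in the LINC00158 experiment than in the experiment labelled CYTOR for 7 genes by a limma test of the difference. The difference was -1.48 for NFKB1, -1.20 for NFKB2, -0.81 for REL, -0.80 for RELA, -1.60 for RELB, -1.08 for NFKBIE and -1.46 for TNFAIP3 (limma adjusted p = 0.00830, 0.00755, 0.0498, 0.0132, 0.0150, 0.0168 and 0.00678). After quantile normalization 5 of these differences were called, and those of REL (-0.49) and TNFAIP3 (-0.62) were not. REL was called in 12 of 36 fits that left out 1 array, whereas NFKB1, NFKB2 and TNFAIP3 were called in all 36. Bright units as a class also fell in the LINC00158 experiment and not in the CYTOR experiment. Whether the differences of the genes arise from this was not tested.

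The effect on NFKB1 was also lower in the LINC00158 experiment than in the RP11-161H23.5 experiment, by -1.40 (limma adjusted p = 0.0299). NFKB1 averaged 6.45 with LINC00158 gapmer 1+2, against 8.34 on LINC00158 scrambled arrays. It averaged 6.44 with RP11-161H23.5 gapmer 1+2, against 7.05 on RP11-161H23.5 scrambled arrays. The means of the experiments lay closer on these gapmer arrays than on the scrambled arrays. Set and treatment cannot be told apart.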

How the results depend on the processing

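Of the 30 gene changes of each experiment, 17 were called in the LINC00158 experiment, 6 in the RP11-161H23.5 experiment and 1 in the CYTOR experiment. The LINC00158 count was 8 after quantile normalization, all shared with the 17, and 8 when set against RP11-161H23.5 scrambled arrays. It ranged over 6 to 26 when 1 array was left out, and each of the 17 calls held in 4 to 12 of 12 such fits. The RP11-161H23.5 count was 20 against the CYTOR and 23 against the LINC00158 scrambled arrays, and 5 to 8 without 1 array. The CYTOR count was 0 after quantile normalization, without a filter and in 1 fit of all arrays. It was 2 with the filter raised to the 75th percentile or with only the arrays of the contrast, 3 against the LINC00158 scrambled arrays, 7 (all higher) against those of RP11-161H23.5, and 0 to 3 without 1 array. Between scrambled groups 5 of 30 differences were called, 2 after quantile normalization, 3 without a filter, 1 with a replicate block, and 0 to 5 without 1 array (0 without RP11-161H23.5 scrambled replicate 3 and 5 without CYTOR scrambled replicate 1). Between experiments 8 of 30 were called, and 4 to 14 without 1 array: 4 without CYTOR scrambled replicate 1, 5 without LINC00158 scrambled replicate 2 and 14 without LINC00158 gapmer 1 replicate 1. Within experiments the count was 0 of 60 under every setting run. Apart from quantile normalization, no share of all units is given for the other settings in this section. The counts under them therefore do not set the genes apart from other units.

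The replicate numbers did not pair the arrays, and 14 of 36 arrays correlated best with an array of their own number. With the number as a replicate block the counts were 17, 7 and 1 of 30 for the LINC00158, RP11-161H23.5 and CYTOR experiments and 9 between experiments.

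Changes whose direction turned all rested on the scrambled arrays of another experiment. Against the RP11-161H23.5 scrambled arrays RELB was 0.45 and NFKBIE 0.05 with LINC00158 gapmer 2, RELB was 0.47 with LINC00158 gapmer 1+2, NFKB2 was 0.75 with CYTOR gapmer 1, and NFKBIE was 1.12 with CYTOR gapmer 2. NFKBIE with RP11-161H23.5 gapmer 1 was -1.21 against the CYTOR and -1.28 against the LINC00158 scrambled arrays. The causes were not tested, and 164 further sign changes concerned values called under neither setting. The mean of all units of a gene was not run, since each gene has 1 unit.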
